A study of Mus musculus with 15 samples.

Results

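The genes described here encode the proteins of the cytosolic ribosome in mouse lung and kidney, measured on Illumina bead arrays. They were chosen by symbol, as Rpl or Rps followed by a digit, or Rpsa, Rplp0, Rplp1 or Rplp2, without the S6 kinases and pseudogenes. Of 65 such symbols on the array, 58 had a probe above background (detection p under 0.01) in at least 2 samples and were kept, out of 11648 genes tested in all. Each gene is represented by the probe with the highest mean signal. Rpl14, Rpl17, Rpl39l, Rpl6, Rps20, Rps23 and Rpsa had no probe that passed and are not described further. The 58 comprised 20 core proteins of the small (40S) subunit, 27 core proteins of the large (60S) subunit, the 3 acidic stalk proteins Rplp0, Rplp1 and Rplp2, and 6 paralogs or -like genes (Rpl22l1, Rpl3l, Rpl7l1, Rpl36al, Rps27l and Rps4l). The symbol rule also took in Rps19bp1, whose product binds the S19 protein, and Rps23rg1, a retrogene named after S23. Neither of these encodes a ribosomal protein, and they are counted separately where the groups are described.

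A ribosome holds 1 copy of nearly every one of these proteins, and cells make the proteins in balanced amounts. Their messenger RNAs are among the most abundant in a cell, and most begin with a cytosine followed by a run of pyrimidines, the terminal oligopyrimidine tract, through which their translation is controlled by mTOR. The stalk proteins recruit elongation factors to the large subunit. Several genes have a paralog whose product can take the parent protein's place, among them Rpl3 with the muscle-enriched Rpl3l, and Rpl22 with Rpl22l1.

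All animals were BALB/c mice. Lungs made up 3 of the 5 groups: 3 lungs of mice given bleomycin into the trachea, which scars the lung; 3 lungs of mice after unilateral ureteral obstruction (UUO), an operation that ties off 1 ureter and scars the kidney above it; and 3 healthy lungs. The other groups were 2 kidneys of UUO mice and 3 healthy kidneys. The labels state that the healthy lungs and kidneys came from the same 3 mice, and that 1 UUO mouse gave both organs; they give no age, sex, dose or time after injury. One UUO-mouse lung was measured on 2 arrays, which were averaged, so 15 arrays gave 14 samples.

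The organs matched their labels by marker. All 8 lung epithelial markers were above background in every lung, and 10 or 11 of 11 kidney tubule and podocyte markers in every kidney, including the healthy kidney whose tissue field reads lung. Several samples also held transcripts that mark another organ, called transcripts of another organ below. Liver markers were above background for 8 of 8 genes in healthy lung 3 and in UUO-mouse lung 1, with median log2 levels of 13.83 and 12.20, against 4.71 to 5.94 in the other 7 lungs. Healthy kidneys also had 7 or 8 of the 8 liver markers above background, with medians of 9.19 to 10.02, so this list is not confined to liver. Bleomycin lung 1 had 8 of 11 kidney markers above background, with a median of 7.05, against 4.40 to 4.80 in the other lungs. Both UUO kidneys had 6 of 8 lung epithelial markers above background, with medians of 8.58 and 7.51, against 2 or 3 of 8 and medians of 4.47 to 4.62 in the healthy kidneys. The highest of these markers was at 14.59 to 14.76 in healthy kidneys, so this list is not confined to lung. The source of the signals of another organ was not tested. Xist, expressed from the inactive X chromosome of females, was at 8.91 in bleomycin lung 3, at 11.24 to 11.70 in UUO-mouse lungs and at 10.44 and 10.72 in UUO kidneys, against 4.31 to 5.52 in every other sample. The Y-linked Eif2s3y ran the other way, at 4.37 to 4.48 in those samples and at 8.94 to 9.66 in every other sample. By these genes the UUO mice and the mouse of bleomycin lung 3 were female and the others male. UUO thus cannot be told apart from sex, and the bleomycin group held both sexes. The part of these differences between the sets of mice in the results below was not tested, and treatment cannot be told apart from the set of mice. In RNA from whole organs, fewer cells of a type and less RNA per cell cannot be told apart either. Raw array medians ran from 95.2 to 125.1, with 32.4 to 41.5% of probes above background. The bleomycin arrays were the brightest, with raw means of 508.5 to 527.2, against 362.7 to 390.4 in healthy lungs and 267.2 to 449.1 in the other groups. Their highest signals were 45197.4 to 45989.5, against 28005.1 to 35050.2 on every other array. Array brightness and bleomycin thus cannot be told apart, and the part of brightness in the results below was not tested.

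Sequences around the RefSeq starts of 9 of the genes the results turn on are shown. The windows run from 20 bases before to 30 bases from the RefSeq start on, in GRCm38.p6, 5′ to 3′ on the gene's strand. Capitals mark CTTTC wherever it stands in the window, which need not be at the start. Other pyrimidine runs are not marked, so the capitals do not mark out the terminal tract. Rpl12 lies at chr2:32961692-32961741, Rps26 at chr10:128626477-128626526, Rpl28 at chr7:4792945-4792994, Rplp2 at chr7:141447631-141447680 and Rpl7a at chr2:26910787-26910836. Rps24 lies at chr14:24490658-24490707, Rplp0 at chr5:115559447-115559496, Rps6 at chr4:86857338-86857387 and Rpl22 at chr4:152325706-152325755. Rps26 and Rps6 are on the minus strand and the others on the plus strand.
Rpl12: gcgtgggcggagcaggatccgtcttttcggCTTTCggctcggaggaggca
Rps26: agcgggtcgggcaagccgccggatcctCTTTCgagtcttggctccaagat
Rpl28: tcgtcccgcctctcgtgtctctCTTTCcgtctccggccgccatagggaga
Rplp2: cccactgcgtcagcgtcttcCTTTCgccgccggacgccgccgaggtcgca
Rpl7a: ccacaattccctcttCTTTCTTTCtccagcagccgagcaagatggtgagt
Rps24: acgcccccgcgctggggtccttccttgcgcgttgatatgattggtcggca
Rplp0: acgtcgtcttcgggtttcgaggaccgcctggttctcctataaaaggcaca
Rps6: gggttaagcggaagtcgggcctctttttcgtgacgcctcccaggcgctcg
Rpl22: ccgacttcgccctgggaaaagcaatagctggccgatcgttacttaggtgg

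Of the 58 genes, 49 had an entry in the set of RefSeq starts used, and the other 9 were missing from that set. CTTTC stood on the gene's strand of this 50-base window in 15 of the 49 (30.6%), against 7.66% of all 27025 genes with a start. On the other strand it stood in 5 of the 49 (10.2%), against 7.30% of all genes. The longer strings CTCTTT and CTTTT, either of which can overlap CTTTC, were each found on the gene's strand in 8 of the 49 (16.3%), against 2.15% and 5.98% of all genes. CCGGAAG, the core bound by ETS-family factors, stood on either strand of the 300 bases around the start in 20 of the 49 (40.8%), against 9.93% of all genes. The strings were chosen with the sequences in view, and they describe these letters only. Genes with and without CTTTC did not part by their change in UUO kidneys: the median log2 difference from healthy kidneys was 0.60 over the 15 with it and 0.63 over the 34 without it. In bleomycin lungs the medians over the same genes were 0.16 and 0.43.

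**Figure D1:**
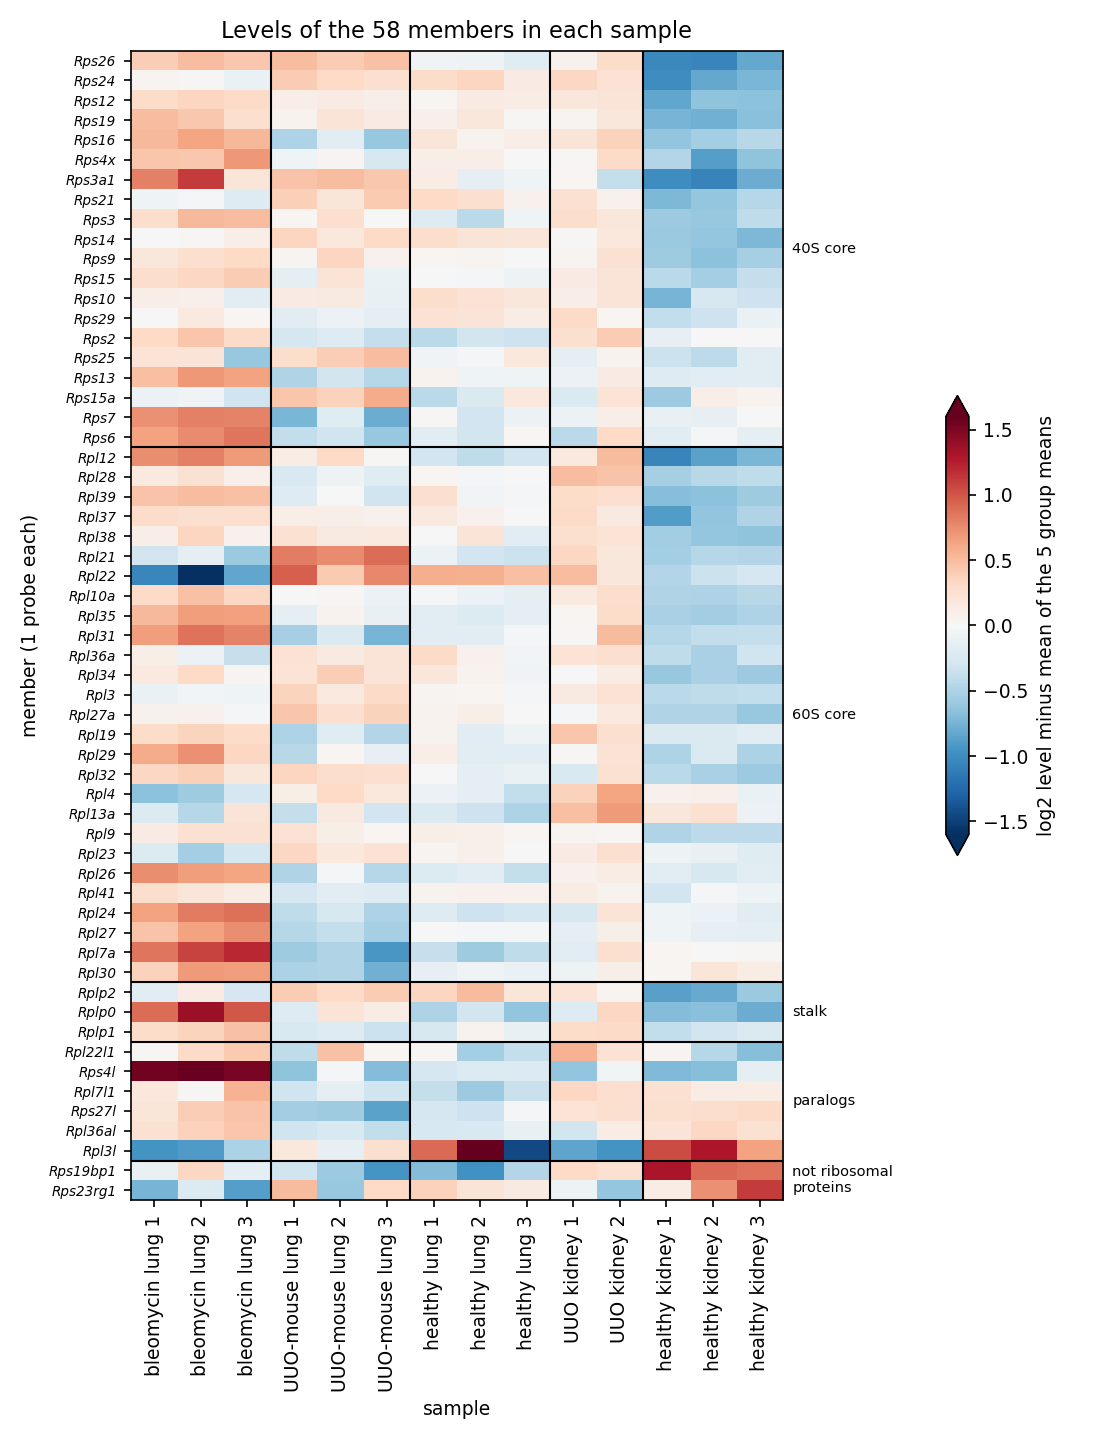
Log2 level of each of the 58 genes (rows) in each of the 14 samples (columns), as the difference from the mean of that gene's 5 group means; red is higher and blue lower, and the ends of the colour bar also stand for values beyond them. Healthy kidneys are blue for most core genes, bleomycin lungs are red for a subset that includes Rpl7a and Rps7, and Rpl22 is blue in bleomycin lungs.

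The heat map of the 58 genes shows how they varied among themselves. All signals were background-corrected and quantile-normalised together, and levels are given as log2 normalised signal. Signals of different probes are not levels on 1 scale, so genes are compared only across samples. Rpl41, the smallest ribosomal protein, varied least, with an SD of 0.17 over the 5 group means. It also had the highest mean level of the 58, with raw signals from 17015.2 to 45197.4. Quantile normalisation acts on rank, and its part in this small SD was not tested. Rps4l, a -like gene of Rps4x, varied most, with an SD of 0.87. Rpl22l1 and Rps23rg1 were each above background in 7 of 14 samples.

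In bleomycin lungs, set against healthy lungs, ribosomal protein genes were more often higher than lower. Of the 58 genes, 31 were higher and 4 lower at a Benjamini-Hochberg adjusted p under 0.05 over all genes (limma), where 43.1% of all genes passed, 21.3% of all genes being higher and 21.8% lower. The median log2 difference was 0.39 over the 58 genes and -0.04 over all genes tested. Samples of the groups did not overlap for 46 of the 58, against 56.2% of all genes. Those higher were 11 of 20 core proteins of the small subunit, 13 of 27 of the large subunit, 2 of 3 stalk proteins and 4 of 6 paralogs.

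Rps4l had levels of 8.56, 8.60 and 8.54 in bleomycin lungs, against 6.75, 6.79 and 6.79 in healthy lungs. All 3 bleomycin lungs lay above every other sample of the series, and the log2 difference was 1.79 ± 0.21 (SE; adjusted p = 6.7e-05, limma). Its parent gene Rps4x, on the X chromosome, was at 13.95, 13.94 and 14.21 in bleomycin lungs and at 13.60, 13.62 and 13.52 in healthy lungs, a rise of 0.45 ± 0.14 (adjusted p = 0.024, limma). The call for Rps4x was lost when healthy lung 1 or 3 or bleomycin lung 3 was left out, and the highest adjusted p over the alternatives was 0.12.

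Among the stalk proteins, Rplp0 was at 8.53, 9.01 and 8.63 in bleomycin lungs, against 7.14, 7.34 and 7.01 in healthy lungs. Its rise of 1.56 ± 0.18 amounted to 2.95-fold (adjusted p = 6.2e-05, limma), with no overlap. The Rplp0 probe, 1 kept of 2 on the array, was dim, with raw signals from 183.7 to 810.3 over all arrays. The probes of Rplp1 (12056.2 to 42354.3) and Rplp2 (7118.9 to 17693.6) were far brighter, so the stalk genes were read at unlike signal. Rplp1 rose by 0.48 ± 0.12 (adjusted p = 0.0057, limma). Rplp2 was at 13.34, 13.64 and 13.23 in bleomycin lungs and at 13.86, 14.01 and 13.70 in healthy lungs. It was lower by the test (-0.45 ± 0.14, adjusted p = 0.02, limma), but in the deposited matrix its difference was 0.15. The call was also lost with array medians, with the compared groups alone, without the 3 lungs with transcripts of another organ, and without healthy lung 1 or 2 or bleomycin lung 1 or 3. The stalk genes thus took both signs under quantile normalisation.

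Among the core proteins of the large subunit, without the stalk, Rpl7a, Rpl12 and Rpl24 rose most. Rpl7a was at 11.54, 11.78 and 11.90 in bleomycin lungs, against 10.32, 10.12 and 10.28 in healthy lungs, a rise of 1.50 ± 0.16 (adjusted p = 3.7e-05, limma). Rpl12, which sits at the base of the stalk, was at 13.27, 13.33 and 13.20 in bleomycin lungs and 12.22, 12.11 and 12.21 in healthy lungs, a rise of 1.08 ± 0.13 (adjusted p = 9.1e-05, limma). Rpl24 was at 12.78, 12.97 and 13.01 in bleomycin lungs, against 11.92, 11.81 and 11.86 in healthy lungs, a rise of 1.06 ± 0.14 (adjusted p = 0.00012, limma). The groups did not overlap for any of the 3 genes. In the small subunit, Rps6, the target of the S6 kinases, was at 13.01, 13.12 and 13.23 in bleomycin lungs and 12.19, 12.07 and 12.41 in healthy lungs, a rise of 0.90 ± 0.18 (adjusted p = 0.0018, limma). Among the paralogs, Rpl7l1 rose by 0.68 ± 0.14, Rpl36al by 0.56 ± 0.13 and Rps27l, a p53-responsive gene, by 0.55 ± 0.13. Rps19bp1 also rose, by 0.73 ± 0.20 (adjusted p = 0.012, limma).

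Rpl22, an RNA-binding protein of the large subunit that is dispensable for most translation, went the other way. It was at 8.87, 8.08 and 9.09 in bleomycin lungs, against 10.50, 10.48 and 10.41 in healthy lungs, and the bleomycin lungs lay below all other samples of the series. The log2 difference was -1.78 ± 0.23 (adjusted p = 0.00011, limma), so that its signal was 3.43-fold lower. One probe of the array represents Rpl22, and its difference stayed between -1.99 and -1.19 over all 28 alternatives. Its paralog Rpl22l1 was at 5.28, 5.58 and 5.68 in bleomycin lungs and 5.29, 4.72 and 4.89 in healthy lungs, where the groups overlapped and the test was not passed (0.55 ± 0.25, adjusted p = 0.096, limma). Rpl23 (-0.39 ± 0.12, adjusted p = 0.017, limma) and Rps23rg1 (-0.86 ± 0.32, adjusted p = 0.045, limma) were the other genes called lower. The call for Rps23rg1 was lost under 13 of 28 alternatives, among them each healthy lung left out and bleomycin lung 1 or 3 left out. For Rpl23 the call rested on the brightest of 3 probes, since the other probes differed by 0.27 and 0.22, and the mean of all 3 by 0.03. Rpl3l, the muscle-enriched paralog, was at 6.18, 6.23 and 6.62 in bleomycin lungs and at 8.03, 9.46 and 5.69 in healthy lungs. Healthy lung 3, the one with liver transcripts, was the lowest of these 6 lungs, the groups overlapped, and the test was not passed (-1.39 ± 0.66, adjusted p = 0.11, limma).

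**Figure D2:**
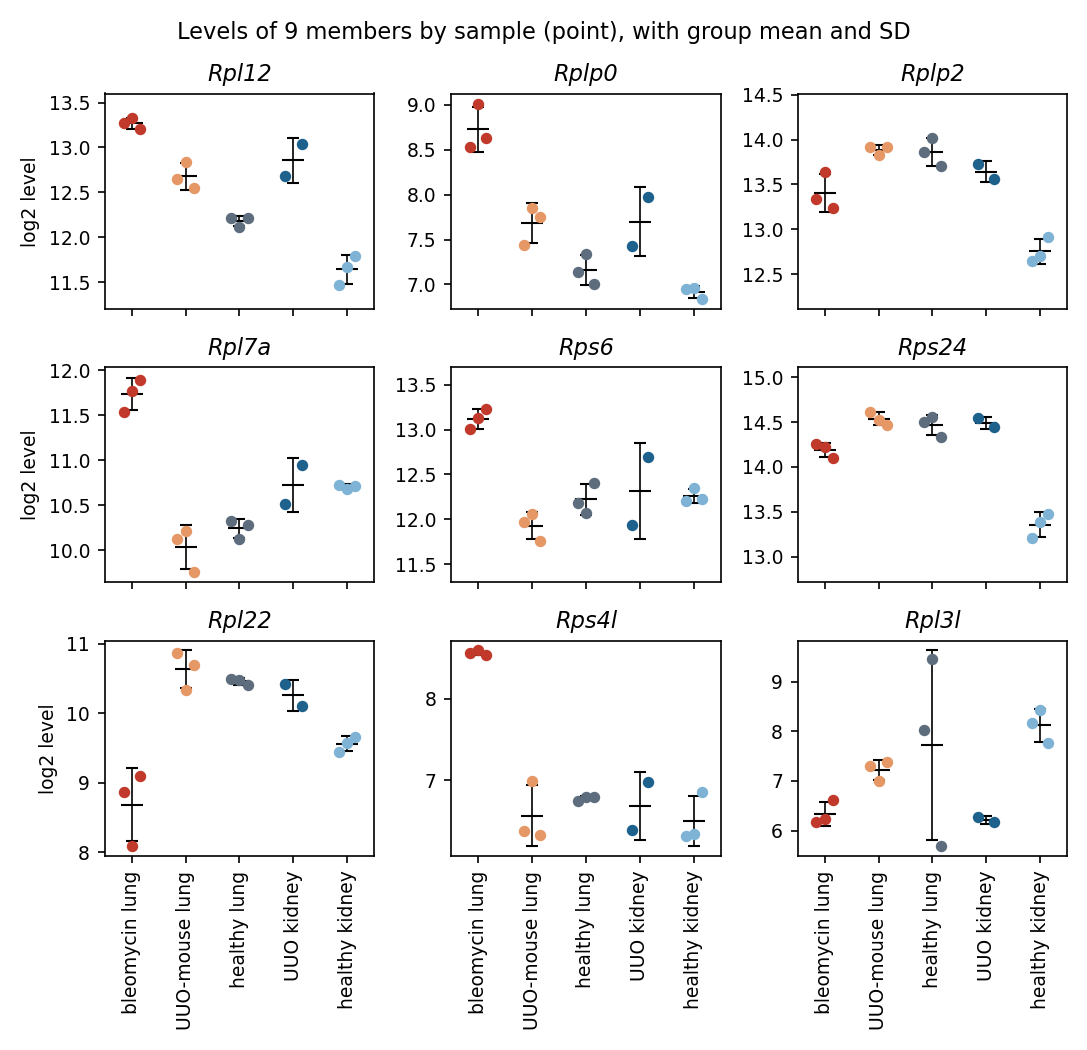
Log2 normalised level (vertical axis, its range set per gene) of 9 genes in every sample, with 1 point per sample and the group mean and SD in black. Rps4l and Rpl7a are highest and Rpl22 lowest in bleomycin lungs, Rps24 and Rplp2 are lowest in healthy kidneys, and the healthy lungs spread between 5.69 and 9.46 for Rpl3l.

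How large the shift in bleomycin lungs was depended on the scaling, while its side did not. Under 5 scalings the median of the 58 genes lay above that of all genes by 0.38 to 0.54 on the log2 scale, as the plot of medians under 5 scalings shows. The same 31 genes were called higher under all 5, and 43 of the 58 lay above the median of all genes under all 5. Genes called lower were less stable: of the 4, Rpl22 was lower under all 5. Scaling each array to its median moved the median of all genes to 0.23, and 75.1% of all calls were then higher, against 49.5% with quantile normalisation. In the deposited matrix it moved to 0.51, and 87.1% of all calls were higher. When the 3 lungs with transcripts of another organ were left out, 21 genes were higher and 2 lower.

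Markers of other cells moved in the same comparison, where 21.3% of all genes were higher and 21.8% lower. In bleomycin lungs 5 of 8 macrophage markers, 6 of 7 matrix markers and 5 of 7 cell cycle markers were higher, while 4 of 5 T cell, 4 of 4 B cell, 6 of 8 endothelial and 4 of 4 red cell markers were lower. The median log2 level of the matrix markers ran from 11.69 to 11.79 in bleomycin lungs and from 7.05 to 8.03 in healthy lungs, and that of the B cell markers from 5.70 to 5.89 in bleomycin lungs and from 7.71 to 7.96 in healthy lungs. For the macrophage markers it ran from 8.52 to 9.13 in bleomycin lungs and from 6.43 to 6.78 in healthy lungs. The part of these cells in the change of the ribosomal protein genes was not tested.

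**Figure D3:**
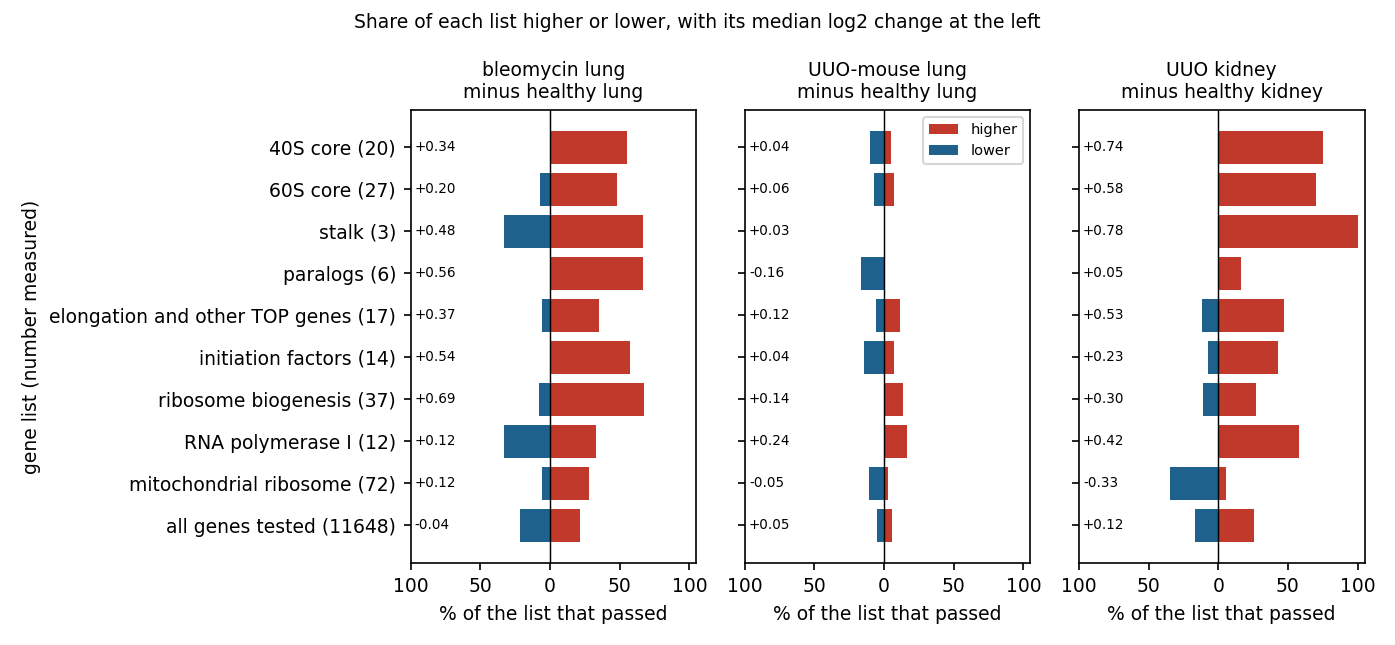
Share of each gene list (rows, number measured in brackets) that was higher (red, right) or lower (blue, left) at an adjusted p under 0.05, for bleomycin lungs, UUO-mouse lungs and UUO kidneys against the healthy organ; the number at the left of each panel is the median log2 difference. Ribosome biogenesis factors have the largest share higher among the larger lists in bleomycin lungs, and mitochondrial ribosomal proteins are more often lower in UUO kidneys.

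Other genes of ribosome production and translation were read for comparison, from lists chosen with earlier results of these data known. Of all genes, 21.3% were higher and 21.8% lower in bleomycin lungs. In bleomycin lungs 25 of 37 ribosome biogenesis factors were higher and 3 lower (median 0.69), among them Nhp2, a protein of the small nucleolar particles that modify ribosomal RNA (2.17, adjusted p = 5.5e-05, limma), and Rpf2 (1.08, adjusted p = 7.5e-05, limma), while Pes1 (-0.96) and Ncl (-0.57) were lower. Of 14 initiation factors 8 were higher and 0 lower at an adjusted p under 0.05 by limma (9 and 0 at an unadjusted p under 0.05), with Eif3c at 2.49 and Eif5a at 1.23. Of 17 elongation factors and other transcripts with a pyrimidine tract, 6 were higher and 1, the helicase gene Eif4a2, was lower (-1.36). RNA polymerase I genes were split, with 4 of 12 higher and 4 lower. Of 72 mitochondrial ribosomal protein genes 20 were higher and 4 lower, with a median of 0.12. Among 15 genes of mTOR and Myc control, 5 were higher and 3 lower, Max rising by 1.68 and the translation repressor Eif4ebp2 falling by 1.92 on the log2 scale.

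In lungs of UUO mice, set against healthy lungs, few genes passed the test, among the ribosomal protein genes as among all genes. Of the 58, 3 were higher and 5 lower (13.8% in all), where 10.9% of all genes passed, 5.81% higher and 5.05% lower. With 3 samples a group, a gene that did not pass is not shown to be unchanged. The median log2 difference was 0.04, against 0.05 over all genes. Samples did not overlap for 27 of the 58, against 35.7% of all genes. Rpl21 was at 7.44, 7.37 and 7.50 in UUO-mouse lungs and 6.52, 6.31 and 6.27 in healthy lungs, a rise of 1.07 ± 0.13 without overlap (adjusted p = 0.0015, limma). Its other 2 probes differed by -0.15 and -0.09, and the mean of the 3 probes by 0.28 (adjusted p = 0.26, limma). Rps26 rose by 0.57 ± 0.11 (adjusted p = 0.012, limma) and Rpl12 by 0.49 ± 0.13 (adjusted p = 0.038, limma). Rps16 was at 12.24, 12.55 and 12.12 in UUO-mouse lungs, against 12.92, 12.79 and 12.83 in healthy lungs, a log2 difference of -0.54 ± 0.13 (adjusted p = 0.023, limma). Rpl30, Rps27l, Rpl27 and Rps13 fell by 0.49, 0.45, 0.44 and 0.39 on the log2 scale. None of these 8 calls held under all 28 alternatives. Without the 3 lungs with transcripts of another organ, 1 gene was higher and 0 lower by limma (6 lower at an unadjusted p under 0.05), and without healthy lung 1, UUO-mouse lung 1 or UUO-mouse lung 3 the count of lower genes was also 0 (7, 5 and 6 at an unadjusted p under 0.05). The stalk genes, Rps6 and Rpl22 did not pass the test in these lungs. Of 17 elongation factors and other transcripts with a pyrimidine tract, 2 were higher and 1 lower (median 0.12), and the 1 lower, Eef2, the translocase of elongation, fell by 2.19 on the log2 scale (adjusted p = 0.00029, limma).

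In UUO kidneys, set against healthy kidneys, ribosomal protein genes were mostly higher. Of the 58, 38 were higher and 2 lower, where 43.0% of all genes passed, 26.0% of all genes being higher and 16.9% lower. Both lower genes, Rps23rg1 and Rps19bp1, are those that encode no ribosomal protein, so that of the 50 core and stalk genes 37 were higher and 0 lower at an adjusted p under 0.05 by limma (39 and 0 at an unadjusted p under 0.05). The median difference was 0.60 over the 58 genes and 0.12 over all genes. The 2 UUO kidneys did not overlap with the 3 healthy kidneys for 49 of the 58, against 63.1% of all genes. Higher were 15 of 20 core proteins of the small subunit, 19 of 27 of the large subunit, 3 of 3 stalk proteins and 1 of 6 paralogs, Rpl22l1.

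Rpl12 was at 12.68 and 13.03 in UUO kidneys, against 11.47, 11.67 and 11.79 in healthy kidneys, a rise of 1.21 ± 0.15 or 2.32-fold (adjusted p = 6.2e-05, limma). Rps26 was at 13.13 and 13.36 in UUO kidneys, against 12.03, 12.00 and 12.24 in healthy kidneys, a rise of 1.15 ± 0.13 (adjusted p = 2.7e-05, limma). Rps24, mutated in some cases of human Diamond-Blackfan anaemia, was at 14.54 and 14.44 in UUO kidneys and 13.21, 13.39 and 13.48 in healthy kidneys, a rise of 1.13 ± 0.13 (adjusted p = 3.5e-05, limma). The groups did not overlap for these genes, and the 3 probes of Rps24 rose alike, by 0.91, 1.33 and 1.13. Rpl28 rose by 0.94 ± 0.12 (adjusted p = 5.7e-05, limma) and the X-linked Rpl39 by 0.92 ± 0.14 (adjusted p = 0.00023, limma). These 5 genes kept their call under all 28 alternatives.

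The stalk genes moved together in UUO kidneys. Rplp2 was at 13.73 and 13.56 in UUO kidneys, against 12.64, 12.71 and 12.91 in healthy kidneys, a rise of 0.89 ± 0.16 (adjusted p = 0.00071, limma). Rplp0 was at 7.43 and 7.97 in UUO kidneys and 6.94, 6.97 and 6.84 in healthy kidneys, a rise of 0.78 ± 0.20 (adjusted p = 0.0081, limma) that did not pass without UUO kidney 2. Rplp1 was at 14.86 and 14.87 in UUO kidneys and 14.17, 14.26 and 14.34 in healthy kidneys, a rise of 0.61 ± 0.13 (adjusted p = 0.0025, limma). In the deposited matrix the difference of Rplp1 was -0.01. Rpl22 was at 10.41 and 10.10 in UUO kidneys, against 9.45, 9.57 and 9.66 in healthy kidneys, a rise of 0.70 ± 0.25 (adjusted p = 0.043, limma) that failed under 11 of 28 alternatives. Rpl22l1, not above background in any healthy kidney, was at 5.82 and 5.50 in UUO kidneys and at 5.31, 4.81 and 4.58 in healthy kidneys (0.76 ± 0.28, adjusted p = 0.044, limma), and its call was lost under 18 of 28 alternatives.

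Several genes that rose in bleomycin lungs did not pass in UUO kidneys. Rpl7a was at 10.52 and 10.94 in UUO kidneys and 10.73, 10.69 and 10.71 in healthy kidneys, a difference of 0.02 ± 0.18 with a 95% interval of -0.36 to 0.40. Rps6 was at 11.93 and 12.69 in UUO kidneys and 12.20, 12.35 and 12.23 in healthy kidneys, and the 2 UUO kidneys lay on either side of the healthy ones. Rps4l (0.18 ± 0.24), Rpl24 (0.09 ± 0.15), Rps7 (0.09 ± 0.18) and Rpl27 (0.09 ± 0.13) did not pass either. Among the paralogs Rpl36al (-0.35 ± 0.14, adjusted p = 0.065, limma), Rpl3l (-1.90 ± 0.74, adjusted p = 0.055, limma) and Rps27l (-0.04 ± 0.15) did not pass. Rpl3l was at 6.28 and 6.17 in UUO kidneys and 8.16, 8.42 and 7.77 in healthy kidneys, without overlap. Rps19bp1 was at 7.02 and 6.94 in UUO kidneys and 8.0, 7.60 and 7.57 in healthy kidneys, and was lower (-0.74 ± 0.23, adjusted p = 0.019, limma), though not under scaling to the array median, nor without healthy kidney 1, UUO kidney 1 or UUO kidney 2 (highest adjusted p = 0.21, limma).

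The calls in UUO kidneys depended on the scaling more than those in bleomycin lungs. The median of the 58 genes lay 0.32 to 0.49 above that of all genes under the 5 scalings, and 43 of the 58 lay above the median of all genes under all 5. In the deposited matrix, where the median of all genes was -0.21 and 34.6% of calls were higher against 60.6% with quantile normalisation, 8 genes were called higher and 8 lower. The 8 genes called higher under all 5 scalings were Rpl12, Rpl21, Rpl28, Rpl39, Rplp0, Rps24, Rps26 and Rps3a1. Among them Rpl21 (raw signals 148.6 to 253.7), Rplp0 (183.7 to 810.3) and Rps3a1 (191.7 to 870.8) had dim probes. The matrix values had the same order of probes as the raw signals within each array but other array factors, with median ratios to the raw signal (over the brightest 10% of probes) of 0.68 and 0.83 in UUO kidneys and 0.99 to 1.10 in healthy kidneys.

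**Figure D4:**
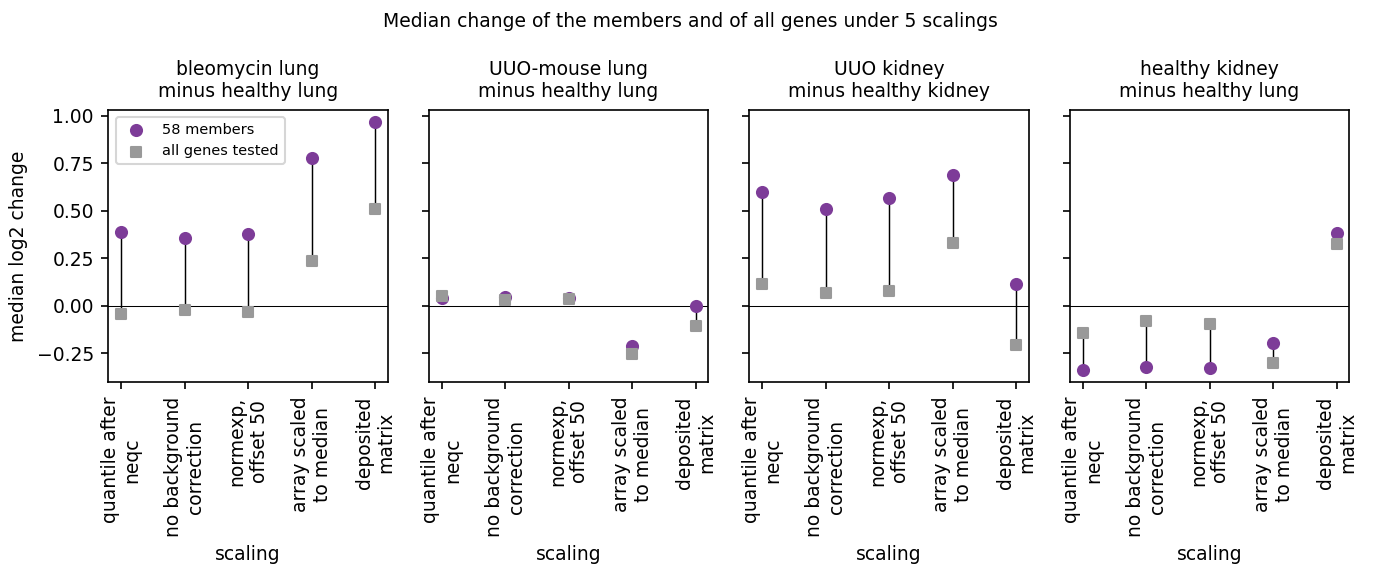
Median log2 difference (vertical axis) of the 58 genes (circles) and of all genes tested (squares) in 4 comparisons, under quantile normalisation after background correction, without background correction, with an offset of 50, with each array scaled to its median, and in the deposited matrix. The circles lie above the squares under all 5 scalings for bleomycin lungs and UUO kidneys, and on either side for UUO-mouse lungs and for healthy kidneys against healthy lungs.

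Among the other genes of translation in UUO kidneys, the mitochondrial ribosomal protein genes were more often lower. Of all genes, 26.0% were higher and 16.9% lower in this comparison. Of these 72 4 were higher and 25 lower, with a median of -0.33, Mrpl18 falling by 1.67 and Mrpl44 by 1.19 on the log2 scale while Mrpl52 (1.30) and Mrpl23 (0.96) rose. Of 17 elongation factors and other transcripts with a pyrimidine tract, 8 were higher, such as Eef1b2 (0.97) and Eef1d (0.82), and Eef2 (-1.57, adjusted p = 0.00016, limma) and Eif4b (-1.39) were lower. Of 37 ribosome biogenesis factors 10 were higher, such as Gar1 (1.12), and 4 were lower, such as Tsr1 (-2.00). Of 12 RNA polymerase I genes 7 were higher, among them the subunits Polr1a (0.87) and Polr1b (1.15). Of 14 initiation factors 6 were higher and 1, Eif3c (-0.85), was lower. Of 15 mTOR and Myc genes 1 was higher, the translation repressor Eif4ebp1 (1.89), and 3 were lower, Eif4ebp2 (-1.21), Larp4 (-0.99) and Mtor itself (-0.98). Markers moved here too: 5 of 8 macrophage, 6 of 7 matrix, 4 of 7 cell cycle and 4 of 8 lung epithelial markers were higher and 4 of 11 kidney markers lower. The median log2 level of the matrix markers was 8.65 and 10.01 in UUO kidneys and ran from 4.57 to 5.22 in healthy kidneys, and that of the kidney markers was 12.40 and 11.68 in UUO kidneys and 13.15 to 13.34 in healthy kidneys. Their part in the change of the ribosomal protein genes was not tested.

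In healthy kidneys, set against healthy lungs of the same mice, 6 of the 58 genes were higher and 28 lower, where 66.6% of all genes passed, 29.8% higher and 36.9% lower. The median was -0.34, against -0.14 over all genes. Samples did not overlap for 46 of the 58, against 73.9% of all genes. Lower were 13 of 20 core proteins of the small subunit and 14 of 27 of the large subunit. Rps24 was at 13.21, 13.39 and 13.48 in healthy kidneys and 14.50, 14.55 and 14.34 in healthy lungs, a difference of -1.10 ± 0.12 (adjusted p = 3.8e-06, limma). Rplp2 was at 12.64, 12.71 and 12.91 in healthy kidneys and 13.86, 14.01 and 13.70 in healthy lungs, a difference of -1.10 ± 0.14 (adjusted p = 1.8e-05, limma). Both were without overlap. Rps3a1 (-0.92), Rpl22 (-0.90) and Rps14 (-0.88) were next.

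Of the 6 genes higher in healthy kidneys, 3 were paralogs and 1 was Rps19bp1. Rps19bp1 was at 8.0, 7.60 and 7.57 in healthy kidneys, against 6.0, 5.73 and 6.23 in healthy lungs, a difference of 1.74 ± 0.20 (adjusted p = 9e-06, limma). Rps27l was at 13.22, 13.25 and 13.27 in healthy kidneys and 12.69, 12.64 and 12.94 in healthy lungs (0.49 ± 0.13, adjusted p = 0.0051, limma). Rpl7l1 (0.59 ± 0.14) and Rpl36al (0.47 ± 0.13) were also higher, so that 3 of 6 paralogs were higher and 0 lower at an adjusted p under 0.05 by limma (3 and 0 at an unadjusted p under 0.05), where the core genes had 2 of 47 higher and 27 lower. Rpl7a was higher as well (0.47 ± 0.16, adjusted p = 0.02, limma). With mouse as a fixed block, 6 genes were higher and 30 lower. The side of the core genes rested on the scaling: the median of the 58 genes lay 0.24 to 0.19 below that of all genes under the 3 quantile scalings, and 0.10 above it with array medians and 0.06 above it in the deposited matrix, where 29 genes were higher and 2 lower. Called on the same side under all 5 scalings were Rpl36al, Rps19bp1, Rps2 and Rps27l (higher) and Rps24 and Rps3a1 (lower). The mitochondrial ribosomal protein genes were higher in kidney, 66 of 72 passing upward and 2 downward, with a median of 1.02.

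**Figure D5:**
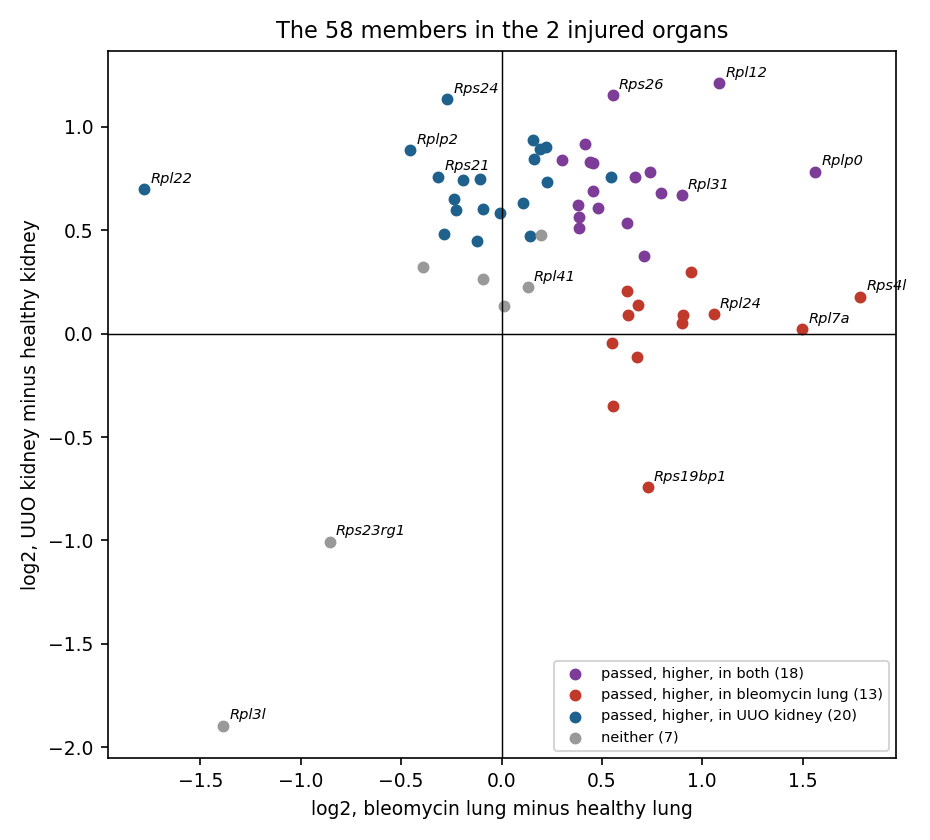
Log2 difference of each of the 58 genes in bleomycin lungs against healthy lungs (horizontal axis) and in UUO kidneys against healthy kidneys (vertical axis), coloured by the tests passed upward. In all, 18 genes are higher in both, 13 in bleomycin lungs, 20 in UUO kidneys, and Rpl22 and Rps4l lie far from the rest.

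The injuries were then set against each other gene by gene. The bleomycin and UUO kidney comparisons share no sample, but their healthy lungs and healthy kidneys came from the same 3 mice. Of the 58 genes 18 were called higher in both, where 6.55% of all genes were. The 18 are 58.1% of the 31 higher in bleomycin lungs and 47.4% of the 38 higher in UUO kidneys, and the 38 are themselves 65.5% of the 58. Genes higher in bleomycin lungs were thus not more often higher in UUO kidneys than the 58 as a whole. Across the 58 the differences in the 2 injuries had a Pearson r of 0.14 and a Spearman rho of -0.16. The 18 were Rpl10a, Rpl12, Rpl19, Rpl29, Rpl31, Rpl32, Rpl35, Rpl39, Rplp0, Rplp1, Rps15, Rps16, Rps19, Rps2, Rps26, Rps3, Rps3a1 and Rps4x. The scatter of the injuries shows 2 arms, genes that moved mainly in UUO kidneys, such as Rps24 and Rplp2, and genes that moved mainly in bleomycin lungs, such as Rpl7a and Rps4l.

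The difference between the effects was tested as an interaction. Of the 58 genes, 12 had a larger effect (more positive) in bleomycin lungs and 22 in UUO kidneys, where 45.0% of all genes passed, 17.9% toward bleomycin and 27.1% toward UUO. The median was -0.22, against -0.17 over all genes. Toward bleomycin lay Rps4l (1.61 ± 0.32, adjusted p = 0.0015, limma), Rpl7a (1.48 ± 0.24, adjusted p = 0.00041, limma), Rps19bp1 (1.47 ± 0.30) and Rpl24 (0.96 ± 0.21), along with Rpl36al (0.91 ± 0.19), Rps6 (0.85 ± 0.27) and Rplp0 (0.78 ± 0.27). Toward UUO lay Rpl22 (-2.48 ± 0.34, adjusted p = 0.00015, limma), Rps24 (-1.40 ± 0.17, adjusted p = 7.5e-05, limma), Rplp2 (-1.34 ± 0.21, adjusted p = 0.00033, limma), Rps21 (-1.07 ± 0.19) and Rps14 (-0.93 ± 0.16). Of 6 paralogs 3 lay toward bleomycin and 0 toward UUO at an adjusted p under 0.05 by limma (4 and 0 at an unadjusted p under 0.05), while of 47 core genes 7 lay toward bleomycin and 21 toward UUO. Under all 5 scalings Rpl22 was the sole gene called toward UUO, and 11 were called toward bleomycin (Rpl24, Rpl26, Rpl27, Rpl30, Rpl36al, Rpl7a, Rps19bp1, Rps27l, Rps4l, Rps6 and Rps7). The sign, though not the call, of Rps24, Rplp2 and Rplp0 also held under all 28 alternatives, and the call for Rplp0 was lost under 8 of them. In the deposited matrix 39 genes lay toward bleomycin and 1 toward UUO. The healthy kidneys and the healthy lungs entered both this contrast and the organ comparison, with the same signs. Rps24 and Rplp2, the genes lowest in the organ comparison, are also toward UUO here, and part of this agreement is built in.

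Brightness was read beside these results because quantile normalisation acts on rank. The 29 genes with the brighter probes had a median of 0.69 in UUO kidneys and 0.23 in bleomycin lungs, and the 29 dimmer ones 0.47 in UUO kidneys and 0.56 in bleomycin lungs. In healthy kidneys against healthy lungs, 21 of the 29 brighter and 7 of the 29 dimmer genes were lower. The array also held 20 further kept probes of these genes, and they took the sign of the chosen probe in 17 of 20 cases in UUO kidneys, 13 in healthy kidneys against healthy lungs, 11 in bleomycin lungs and 10 in UUO-mouse lungs. Ribosomal protein genes have many near-identical pseudogene copies, and probes could take up their transcripts, which was not tested.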

How the data were processed

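RNA of whole lungs and kidneys was extracted with TRIzol, amplified to biotinylated cRNA and hybridised to Illumina mouse bead arrays, per the labels' protocols. The deposited values were a raw signal intensity and a detection p-value per probe and array, from GenomeStudio 5.0 per the submitters' processing notes. A second deposited table holds intensity values that the authors processed; the sources used here do not name its normalisation. Within each array its order of probes was that of the raw signals, so its direction is that of the raw signal. Medians ran from 8.4 to 28.8, and 0.024 to 24.4% of values lay below 0. The values were read as linear intensities with unknown array factors. Before log2 was taken, values under 16 were set to 16, which held for 47.7% of all its values. Its differences for dim genes are limited by this floor.

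Raw signals were background-corrected by normexp with negative controls inferred from detection p-values, given an offset of 16, quantile-normalised and put on the log2 scale (neqc, limma 3.58.1, R 4.3.3). Probes at detection p under 0.01 in at least 2 of 14 samples were kept (21048), and 18022 of these carried 1 gene in the platform annotation; the brightest probe stood for each of 11648 genes. The 2 arrays of UUO-mouse lung 2 were averaged. Group means of the 5 groups were fitted with lmFit and eBayes (9 residual degrees of freedom) and p-values adjusted by Benjamini-Hochberg over all genes at 0.05. Errors of differences are standard errors of this fit, and intervals are at 95%. The fit was run on simulated data with known changes, drawn with independent normal noise. Such data check the computation and cannot show how the fit performs on these arrays. Start sequences and chromosomes came from RefSeq tables of GRCm38.p6. With 2 or 3 samples a group, on 2 to 4 arrays, their number limits the precision.

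The genes and lists were chosen with earlier results of these data known. Named genes are the up to 5 largest rises and 5 largest falls per comparison among genes that passed without overlap, all paralogs and their parents, the stalk genes, Rps6, Rps19bp1, the extremes of level and spread, and up to 2 genes each way of every other list with the smallest adjusted p, and Eef2; further genes appear where a count is listed. Mouse names in the labels mark shared mice; a replicate number coincides with a shared mouse for 1 healthy and 1 UUO mouse and otherwise joins different mice, so the numbers were not taken as pairs. Same-numbered samples of different mice had correlations of their deviations from -0.57 to 0.17 (median 0.00) over all genes, and samples of 1 mouse from -0.12 to 0.18.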

Additional observations from a re-analysis of the deposited data

Results flagged for a closer look

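The effects of bleomycin in lung and of UUO in kidney differed for the genes below by the interaction test (limma, adjusted p under 0.05). Most of them were named for being among the largest differences of this same contrast, so their number carries no weight. On the log2 scale, as the bleomycin effect in lung minus the UUO effect in kidney, the differences were 1.61 for Rps4l, 1.48 for Rpl7a, 1.47 for Rps19bp1, 0.96 for Rpl24, 0.91 for Rpl36al, 0.85 for Rps6, 0.78 for Rplp0 and 0.60 for Rps27l. They were -2.48 for Rpl22, -1.40 for Rps24, -1.34 for Rplp2, -1.07 for Rps21, -0.93 for Rps14, -0.89 for Rpl36a, -0.69 for Rpl3 and -0.50 for Rpl39. Both arms hold members of both subunits. Organ, agent and set of mice differ together between the injuries and cannot be told apart. Rpl3, Rpl36a, Rpl39, Rps14 and Rps21 took the opposite sign in the deposited matrix. The call for Rpl39 (adjusted p = 0.043, limma) held under 13 of 28 alternatives, and that for Rplp0 was lost under 8.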

How the results depend on the processing

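Of 420 recomputed counts and medians of the 58 genes, 369 stayed within 1.5 times the count or 1 SD between samples (0.115) of the median; of 2968 recomputed differences of single genes, 2686 kept direction and side of the threshold, 197 lost the call, 28 gained it and 57 changed sign. The causes were not tested unless the setting itself names one. With 2 or 3 samples a group, and probes of which 32.4 to 41.5% were above background, calls for dim genes such as Rpl22l1 and Rps23rg1 (lost in 18 and 9 of 28 settings in UUO kidneys) rest on little signal. With each array scaled to its median, the medians were 0.78 in bleomycin lungs, -0.21 in UUO-mouse lungs, -0.19 in healthy kidneys against healthy lungs and 0.010 for the bleomycin effect minus the UUO kidney effect; 2 genes were lower in bleomycin lungs, 1 higher in UUO-mouse lungs, 0 lower in UUO kidneys (by limma's adjusted p; 2 at an unadjusted p under 0.05), 14 lower in healthy kidneys and 4 lower for the difference of effects. There Rpl23, Rpl3 and Rpl36a changed sign in bleomycin lungs (0.019, 0.36 and 0.15), Rpl22, Rpl36a, Rpl7l1, Rplp2 and Rps19bp1 in UUO-mouse lungs (-0.14, -0.28, -0.21, -0.20 and -0.26), and Rplp1 and Rps4x for the difference of effects (0.25 and 0.026). In the deposited matrix 49 genes were higher and 1 lower in bleomycin lungs (median 0.97), 8 higher and 8 lower in UUO kidneys (0.12), 29 higher and 2 lower in healthy kidneys against healthy lungs (0.38), and 39 and 1 for the difference of effects (0.83). The sign changed there for Rpl23, Rpl3, Rpl36a and Rplp2 in bleomycin lungs (0.20, 0.54, 0.33 and 0.15), for Rpl36a, Rpl7l1 and Rps19bp1 in UUO-mouse lungs (-0.054, -0.0019 and -0.22), and for Rpl7l1, Rplp1, Rps4l and Rps6 in UUO kidneys (-0.16, -0.013, -0.098 and -0.47). In healthy kidneys against healthy lungs it changed for Rpl22l1 (0.67), Rpl3 (0.40), Rpl36a (0.15), Rpl39 (0.11), Rplp0 (0.036), Rplp1 (0.46), Rps4l (0.053) and Rps4x (0.095), and for the difference of effects for Rpl22l1 (1.04), Rpl3 (0.52), Rpl36a (0.14), Rpl39 (0.63), Rplp1 (1.00), Rps14 (0.29), Rps21 (0.14) and Rps4x (0.78). Without background correction 6 genes were higher in UUO-mouse lungs. Genes lower in UUO-mouse lungs, 5 in the reported fit, numbered 3 with quantiles within each organ, 3 with the mean of the kept probes, 0 with the compared groups alone (limma; 7 at an unadjusted p under 0.05) and 2 with the first array of UUO-mouse lung 2. Without a filter on dim probes 1 gene was lower in UUO kidneys. With the mean of the kept probes Rpl23 was at 0.033 in bleomycin lungs, and with the second array of UUO-mouse lung 2 Rplp2 and Rps19bp1 were at -0.011 and -0.060. Quantiles within each organ give no value for healthy kidneys against healthy lungs.

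Replicate numbers join the organs of 1 mouse in 2 cases and different mice otherwise, so they are no pairing; with the replicate number as a block 2 genes were lower in UUO-mouse lungs; counts and medians of the other comparisons stayed close, with 30 higher and 3 lower in bleomycin lungs, 35 and 2 in UUO kidneys (median 0.58), 6 and 28 in healthy kidneys against healthy lungs, and 12 and 21 for the difference of effects. Mouse as a random block (correlation 0.079) left 31 and 4 in bleomycin lungs and 37 and 2 in UUO kidneys, and mouse as a fixed block, an alternative chosen after seeing the data, 6 and 30 in healthy kidneys against healthy lungs.

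Without the 3 lungs with transcripts of another organ, 2 genes were lower in bleomycin lungs, and 1 was higher and 0 lower in UUO-mouse lungs (limma; 6 lower at an unadjusted p under 0.05); Rpl36a and Rplp2 were then at -0.022 and -0.068 in UUO-mouse lungs, and Rpl3l at -0.63 in healthy kidneys against healthy lungs and -0.43 for the difference of effects. Leaving out 1 sample at a time gave 24 to 31 genes higher and 1 to 5 lower in bleomycin lungs, 1 to 4 higher and 0 to 5 lower in UUO-mouse lungs, 29 to 38 higher and 1 to 3 lower in UUO kidneys, 5 to 7 and 27 to 29 in healthy kidneys against healthy lungs, and 7 to 13 and 17 to 22 for the difference of effects; the medians ran from 0.36 to 0.42, 0.01 to 0.05, 0.55 to 0.63, -0.37 to -0.31 and -0.32 to -0.19. Counts moved by over 1.5 times without these samples: in bleomycin lungs 2 genes were lower without bleomycin lung 1 or healthy lung 1, and 1 without healthy lung 2; in UUO-mouse lungs 1 was higher without healthy lung 3 or UUO-mouse lung 3; in UUO kidneys 1 was lower without either UUO kidney or any healthy kidney. Genes lower in UUO-mouse lungs numbered 0 without healthy lung 1, UUO-mouse lung 1 or UUO-mouse lung 3 (limma; 7, 5 and 6 at an unadjusted p under 0.05), 1 without healthy lung 2 or 3, and 3 without bleomycin lung 1 or any healthy kidney. For the difference of effects 7 were higher without UUO kidney 1. Values that changed sign ran, without 1 sample at a time, in UUO-mouse lungs from -0.0026 to 0.18 for Rpl36a and from -0.051 to 0.11 for Rplp2 (lowest without healthy lung 3), from -1.52 (without healthy lung 3) to 0.37 (without healthy lung 2) for Rpl3l, and from -0.053 (without UUO-mouse lung 1) to 0.26 for Rps19bp1. In UUO kidneys they ran from -0.12 to 0.47 for Rps4l and from -0.32 to 0.43 for Rps6, both negative without UUO kidney 2. In healthy kidneys against healthy lungs they ran from -0.27 to 0.095 for Rpl22l1 (positive without healthy kidney 3 or healthy lung 1), from -0.63 (without healthy lung 3) to 1.26 for Rpl3l, and from -0.035 to 0.13 for Rps6 (negative without healthy lung 2 or healthy kidney 2). For the difference of effects Rpl3l ran from -0.51 (without healthy lung 3) to 1.38.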

Other observations

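Rpl3l and Rps4l varied in ways their parent genes did not. Rpl3l was at 8.03, 9.46 and 5.69 in the 3 healthy lungs, while Rpl3 lay between 13.83 and 13.90 in them, and the SD of Rpl3l over the healthy lungs was 1.90. Rps4l had an SD of 0.03 in bleomycin lungs and 0.03 in healthy lungs, with no sample of the other groups above 6.99. Rps4x was also higher in UUO kidneys by the test.

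Between the arrays of UUO-mouse lung 2, made from 1 lung, the 58 genes differed by a median of 0.15 log2 units and 2 of them by over 0.5. Between arrays of different UUO-mouse lungs this median ran from 0.080 to 0.24, so the arrays of 1 lung were not the closest. Between arrays of different UUO-mouse lungs, 1 to 10 of the 58 genes differed by over 0.5. The smallest difference called between UUO-mouse and healthy lungs was -0.39 for Rps13, and this call was lost under 16 of 28 alternatives. A median over 58 genes does not bound the spread of a single gene, so these medians cannot gauge that call.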
